A study of Mus musculus with 4 samples.

Results

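The 10 genes described here (Egfl7, Tcf15, Meox2, Apln, Aplnr, Sox17, Sox18, Erg, Fabp4 and Gpihbp1) are grouped as capillary endothelial identity genes. Not all are particular to capillaries: Sox17 is known for an arterial role, and Fabp4 is also expressed in fat and macrophages. The 10 genes were chosen by gene symbol, and each matched 1 of the 55401 genes of the deposited table. All 10 passed the filter on low counts that left 18475 genes to test, and each was well above it in both groups. The libraries were made from poly(A) RNA of mouse hearts at day 28 after surgery. Sham hearts (n = 2 libraries) came from mice whose chest was opened with no ligation, and MI hearts (n = 2 libraries) from mice given the ligation operation that causes a myocardial infarction. The series' design text speaks of infarcted tissue and normal left ventricle, while each sample is labelled only as heart, so the piece of heart taken is not known per library. Strain, age and sex are not given in the labels, and nothing states that the 2 libraries of a group are separate animals. The p-values therefore speak for library-to-library spread alone, which could be technical. Hearts given cyanidin, which the series' title names, were not analysed here.

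Capillaries of the heart line up along the muscle fibres and hand over oxygen and fatty acids, the main fuel of the adult heart. Lipoprotein lipase, held on the luminal face of the capillary by the protein GPIHBP1, frees fatty acids from circulating lipoproteins, and fatty acid binding proteins such as FABP4 carry them inside the endothelial cell. The transcription factors MEOX2 and TCF15 form a pair known to program this fatty acid transport in heart endothelium. ERG, an ETS-family factor, and the SOXF factors SOX17 and SOX18 maintain endothelial identity. EGFL7 is a secreted endothelial protein, and apelin (Apln) with its receptor (Aplnr) is a peptide signal used in vessel growth and in the control of cardiac contraction.

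Total estimated counts ran from 66624106 to 75979320 per library, at an apparent 4 counts per fragment. Libraries of both groups carried transcripts of other tissues. MI replicate 1 held all 11 lung markers, at a summed 291 FPKM (fragments scaled to transcript length and library size), against 0.31 and 1.29 in the Sham libraries and 0.43 in MI replicate 2. The lung surfactant gene Sftpc had 0 counts in those 3 libraries. Sham replicate 2 held atrial markers at a summed 5051 FPKM, against 154 in the other Sham library and 2644 and 1863 in MI, where Nppa made up 2632 and 1855 of the sum. It also held all 10 adipocyte markers, at a summed 238 FPKM against 84.6 in the other Sham library and 69.8 and 70.2 in MI. The adipocyte gene Adipoq had 1602 counts in Sham replicate 2 and 0 in the other 3 libraries. The lung has a dense capillary bed and fat expresses Fabp4, and the part of these transcripts in the differences below was not tested; values without single libraries are given with the results. All 16 pan-endothelial markers, among them Pecam1, Cdh5 and Tie1, were detected in every library. Fibroblast markers (9 of 9 detected in each library) summed to 117 and 180 FPKM in Sham and 565 and 345 in MI, with 6 of 9 higher and 0 lower at an unadjusted p under 0.05, while cardiomyocyte markers summed to 15055 and 14199 against 12675 and 13795. The part of this shift in tissue transcripts in the differences below was not tested either.

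In the infarcted hearts Aplnr, Tcf15, Meox2, Egfl7 and Sox18 were higher, by 1.69-fold to 4.55-fold, in both MI libraries than in both Sham libraries, Sox17 was at 0.779-fold, and the abundant lipid-handling genes Fabp4 and Gpihbp1 were at 1.08-fold and 1.01-fold. None of these differences passed an adjusted p under 0.05 over all genes tested in edgeR's quasi-likelihood test, in which 0% of the 18475 genes passed. At an unadjusted p under 0.05, 5 of the 10 genes were higher and 0 lower, where 7.12% of all genes tested were higher and 4.51% lower. DESeq2 called 4 of the 10 higher (Aplnr, Tcf15, Egfl7 and Meox2), and 0 lower, where it called 2.18% of all genes higher and 1.26% lower. In CPM, counts scaled to library size by the trimmed mean of M-values (TMM), 7 of the 10 genes had both MI libraries above both Sham libraries (24.9% of all genes tested) and 1 had both below (21.9%). In FPKM these counts were 8 (39% of all genes) and 1 (8.89%). The log2 difference was above 0 for 9 of the 10 genes (50.2% of all genes), with a median of 0.54 against 0.003 over all genes tested. In bulk tissue, fewer or more capillary cells and less or more RNA per cell cannot be told apart.

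**Figure D1:**
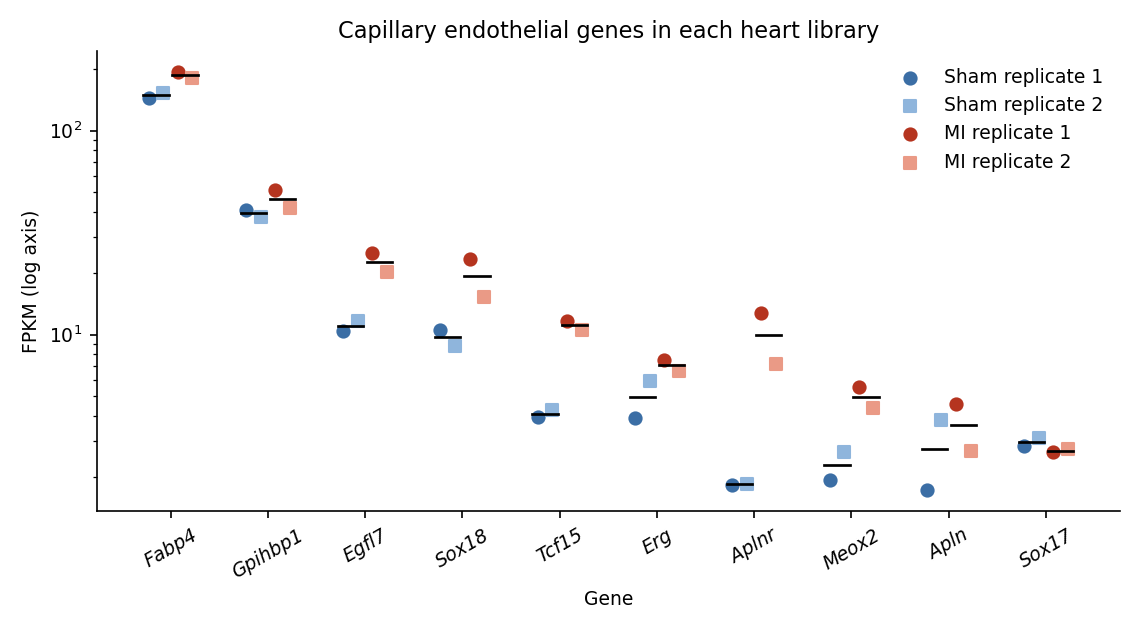
FPKM (log axis) of the 10 genes in each of the 4 libraries, ordered by mean level, with black lines for the group means (n = 2 each). Aplnr shows the widest gap between groups, at 1.84 and 1.86 in Sham against 12.7 and 7.21 in MI, while the Apln points of the groups overlap.

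The levels of the 10 genes spanned a wide range. Fabp4, the fatty acid binding protein, averaged 149 ± 5.98 FPKM (SD, n = 2) in Sham, above 99.0% of the genes tested by mean FPKM. Gpihbp1, the capillary anchor of lipoprotein lipase, followed at 39.3 ± 2.28 FPKM, then Egfl7 at 11.1 ± 0.82 and Sox18 at 9.68 ± 1.23. Erg (4.92 ± 1.43), Tcf15 (4.10 ± 0.23), Sox17 (2.99 ± 0.20), Apln (2.77 ± 1.46), Meox2 (2.30 ± 0.52) and Aplnr (1.85 ± 0.01) made up the lower end. From Erg to Aplnr, neighbours in this order differed by no more than the larger of their SDs, except Tcf15 and Sox17. In the MI libraries the first 4 places were the same, whereas Aplnr went from rank 10 to rank 6 (9.95 ± 3.87 FPKM) and Sox17 from rank 7 to rank 10 (2.70 ± 0.07 FPKM).

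The apelin receptor gene Aplnr (ENSMUSG00000044338, chromosome 2, 85136225 to 85139923, GRCm38) had the largest difference of the 10. It was at 1.84 and 1.86 FPKM in Sham replicates 1 and 2, and at 12.7 and 7.21 FPKM in MI replicates 1 and 2. The Sham libraries were nearly equal and both MI libraries were several-fold above them, with MI replicate 1 the higher. In counts this was 537 and 498 against 3740 and 2214. The log2 difference was 2.19 ± 0.26 (SE), a 4.55-fold difference (unadjusted p = 0.00047, adjusted p = 0.188 in edgeR, adjusted p = 2.2e-10 in DESeq2). Without MI replicate 1, the library with lung transcripts, it was 1.83 ± 0.22 (unadjusted p = 0.00167), and between Sham replicate 1 and MI replicate 2 it was 1.76. That pair held lung markers at a summed 0.31 and 0.43 FPKM and had 0 Adipoq counts. Its atrial sums of 154 and 1863 FPKM differed, with Nppa at 151 and 1855 of them. Of the other atrial markers, Myl7 was at 0.46 and 0.41 FPKM and Dkk3 at 0.41 and 6.33.

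Apln (ENSMUSG00000037010, chromosome X, 48025146 to 48034853), which encodes the ligand, showed no such gap. Its FPKM values were 1.73 and 3.80 in Sham and 4.57 and 2.68 in MI. Sham replicate 2 lay above MI replicate 2, so the groups overlapped. The spread within each group was wider than the gap between the group means. The log2 difference was 0.18 ± 0.40 (adjusted p = 0.895 in edgeR). It turned to -0.23 without Sham replicate 1 and to -0.15 without MI replicate 1, and was 0.75 without Sham replicate 2. The Aplnr to Apln ratio of FPKM within a library, which no library scaling can move, was 1.06 and 0.49 in Sham and 2.78 and 2.69 in MI.

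Of the other genes of the apelin system, 5 of 7 had enough counts to be tested and 0 passed an adjusted p under 0.05. Arrb2, which encodes a beta-arrestin that couples to the receptor, was the only one at an unadjusted p under 0.05, at 2.40 and 2.20 FPKM in Sham and 4.73 and 4.10 in MI (log2 difference 0.71 ± 0.18, unadjusted p = 0.0128). The inhibitory G protein gene Gnai2 had 0.33 ± 0.13 and the protease gene Corin -0.16 ± 0.20. Apela, the second ligand of the receptor, had 0, 8, 0 and 0 counts, in the order Sham replicates 1 and 2 and MI replicates 1 and 2, which at 4 counts per fragment is too few for a comparison. The list's median log2 difference was -0.16.

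The transcription factors of the set fell into genes that were higher and genes that were not. Tcf15 (ENSMUSG00000068079, chromosome 2, 152143561 to 152149097), a basic helix-loop-helix factor, was at 3.94 and 4.26 FPKM in Sham and 11.7 and 10.5 in MI. The gap was far wider than the spread in either group. Between the MI libraries, Tcf15 was higher in MI replicate 1 in FPKM and nearly equal in CPM. Its log2 difference was 1.21 ± 0.18, a 2.32-fold difference (unadjusted p = 0.00123, adjusted p = 0.225 in edgeR, adjusted p = 1.7e-04 in DESeq2). This value moved the least of the 5 higher genes when libraries were left out, from 1.19 to 1.23 over the 4 fits with 1 library left out. Meox2 (ENSMUSG00000036144, chromosome 12, 37108540 to 37179534), a homeobox factor and the partner of TCF15, was at 1.93 and 2.67 FPKM in Sham and 5.54 and 4.38 in MI. Both MI libraries were higher, and the Sham libraries differed from each other by 1.38-fold. The log2 difference was 0.89 ± 0.21 (unadjusted p = 0.00812, adjusted p = 0.316 in edgeR, adjusted p = 0.04 in DESeq2), and 0.81 ± 0.30 without MI replicate 1 (unadjusted p = 0.0595). Within a library, the Tcf15 to Meox2 ratio of FPKM was 2.04 and 1.596 in Sham and 2.11 and 2.395 in MI, so the groups did not overlap but were close.

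Of the SOXF factors of the set, Sox18 had a positive and Sox17 a negative log2 difference, and only Sox18 reached an unadjusted p under 0.05. Sox18 (ENSMUSG00000046470, chromosome 2, 181669836 to 181671640) was at 10.6 and 8.81 FPKM in Sham and 23.5 and 15.3 in MI. Both MI libraries were higher, with a wide gap between them. Its log2 difference was 0.76 ± 0.24 (unadjusted p = 0.025, adjusted p = 0.363 in edgeR), but 0.52 ± 0.27 without MI replicate 1 (unadjusted p = 0.132) and 0.57 ± 0.24 without Sham replicate 2 (unadjusted p = 0.0745), and between Sham replicate 1 and MI replicate 2 it was 0.32. Sox17 (ENSMUSG00000025902, chromosome 1, 4490931 to 4496757), a factor known for its arterial role, was at 2.85 and 3.13 FPKM in Sham and 2.65 and 2.75 in MI. The MI values were the lowest of the 4 by a small amount, with a log2 difference of -0.36 ± 0.16 on the TMM scale (unadjusted p = 0.0745, adjusted p = 0.469 in edgeR) and -0.11 on the log2(FPKM + 1) scale. Sox17 was negative in every fit run that tested it, at -0.46 to -0.11, and Sox18 was positive in every fit. The Sox18 to Sox17 ratio of FPKM within a library was 3.70 and 2.81 in Sham and 8.88 and 5.55 in MI. Sox7, the remaining SOXF gene, had a Sox7 to Sox17 ratio of 1.34 and 1.32 in Sham and 3.30 and 2.36 in MI, whereas the Sox18 to Sox7 ratio overlapped between the groups, at 2.75 and 2.13 against 2.69 and 2.36. These ratios are given as descriptions, with no test.

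Erg (ENSMUSG00000040732, chromosome 16, 95359169 to 95586593) was at 3.91 and 5.93 FPKM in Sham and 7.53 and 6.64 in MI. The groups did not overlap, but Sham replicate 2 lay close to the MI libraries. The log2 difference of 0.32 ± 0.19 (unadjusted p = 0.166, adjusted p = 0.576 in edgeR) was 0.11 without Sham replicate 1 and 0.56 without Sham replicate 2 (unadjusted p = 0.0162), so its size rests on which Sham library is used. Between Sham replicate 1 and MI replicate 2, Erg differed by 0.55, Tcf15 by 1.20, Meox2 by 0.97, Apln by 0.42, Sox17 by -0.27, Fabp4 by 0.11 and Gpihbp1 by -0.18 on the log2 scale. The median of the 10 in that comparison was 0.49, and without MI replicate 1 it was 0.42.

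**Figure D2:**
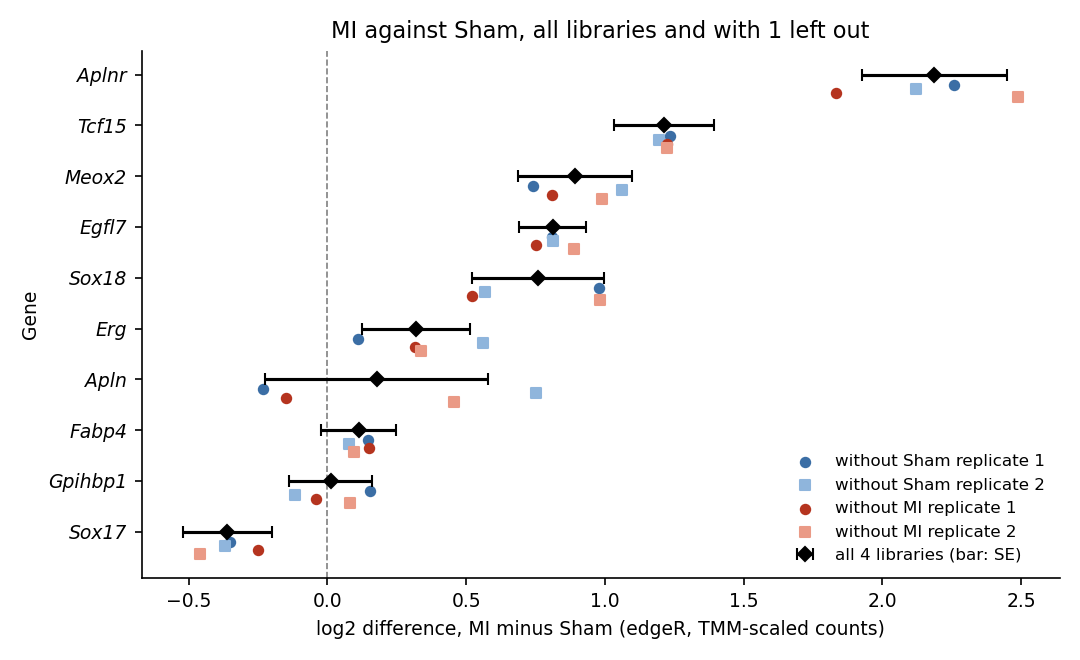
Log2 difference between MI and Sham for each of the 10 genes, as the edgeR value from all 4 libraries with its SE (black) and as the value with 1 library left out (coloured points). Aplnr, Tcf15, Meox2, Egfl7 and Sox18 stay above 0.5 in every fit shown, Sox17 stays below 0, and Apln and Gpihbp1 lie on both sides of 0.

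Egfl7 (ENSMUSG00000026921, chromosome 2, 26580014 to 26592684), the secreted endothelial protein gene, was at 10.5 and 11.6 FPKM in Sham and 25.0 and 20.3 in MI. The Sham libraries were equal in CPM (46.6 and 46.7), and both MI libraries were well above them (85.7 and 78.1). Its log2 difference was 0.81 ± 0.12, a 1.76-fold difference (unadjusted p = 0.00122, adjusted p = 0.225 in edgeR, adjusted p = 2.0e-04 in DESeq2). It was 0.75 ± 0.18 without MI replicate 1 (unadjusted p = 0.0166) and 0.74 between Sham replicate 1 and MI replicate 2. Other annotated genes overlap this locus. Its intronic microRNA gene Mir126a had 1 count in every library, and poly(A) libraries do not measure mature microRNAs. The overlapping gene Gm20532 had 0 counts in all 4. Agpat2, the neighbour on the opposite strand, had 1189 and 3314 counts in Sham and 2909 and 2265 in MI. It shares 64 bases with Egfl7 in the GENCODE annotation, whereas by the deposited coordinates the genes do not overlap. Whether strand was used in the counting is not given in the sources used here, and the part of the neighbour's reads in the Egfl7 difference was not tested.

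Promoter windows were matched in the RefSeq table for 4 of the 10 genes (Egfl7, Meox2, Erg and Apln, 8 windows) and not for Tcf15, Aplnr, Sox17, Sox18, Fabp4 and Gpihbp1. They are shown because Egfl7 and Meox2 were higher in both MI libraries, Apln was not, and Erg encodes a factor that binds ETS motifs. Egfl7 and Erg have 3 windows each, of which 1 is shown because it holds the motif; Meox2 and Apln have 1 window each. Each window holds the bases 250 to 11 before an annotated start, in the direction of the gene (GRCm38.p6), and capitals mark the ETS-type motif CAGGAAG or its reverse complement CTTCCTG. The windows are chr2:26583615-26583854 on the + strand for Egfl7, chr12:37108290-37108529 on the + strand for Meox2, chrX:48034864-48035103 on the - strand for Apln and chr16:95459359-95459598 on the - strand for Erg.
Egfl7: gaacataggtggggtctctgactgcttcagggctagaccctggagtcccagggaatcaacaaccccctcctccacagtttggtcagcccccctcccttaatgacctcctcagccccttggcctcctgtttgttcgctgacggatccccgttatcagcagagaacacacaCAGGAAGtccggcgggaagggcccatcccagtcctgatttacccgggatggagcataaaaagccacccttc
Meox2: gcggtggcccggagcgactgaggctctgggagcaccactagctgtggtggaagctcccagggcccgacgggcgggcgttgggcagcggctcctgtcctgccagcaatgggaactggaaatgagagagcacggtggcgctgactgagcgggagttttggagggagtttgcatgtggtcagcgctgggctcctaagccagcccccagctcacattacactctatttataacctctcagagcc
Apln: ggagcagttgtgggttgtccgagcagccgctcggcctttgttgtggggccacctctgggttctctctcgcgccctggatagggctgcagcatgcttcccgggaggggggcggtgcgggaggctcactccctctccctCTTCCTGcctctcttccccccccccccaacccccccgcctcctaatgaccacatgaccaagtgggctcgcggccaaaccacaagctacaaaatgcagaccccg
Erg: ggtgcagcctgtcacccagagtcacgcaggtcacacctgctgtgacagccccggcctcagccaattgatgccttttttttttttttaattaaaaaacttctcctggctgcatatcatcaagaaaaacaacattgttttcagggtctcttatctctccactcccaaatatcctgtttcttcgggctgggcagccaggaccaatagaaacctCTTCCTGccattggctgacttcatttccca
The motif starts 81 bases before the Egfl7 start shown, 113 before that of Apln and 40 before the Erg start shown, and the letters do not occur in the Meox2 window. Of the windows not shown, 1 of Egfl7 holds the motif in 2 places, and the other one of Egfl7 and both of Erg hold none. On either strand it was found in 4 of the 8 windows of these genes and in 10.4% of all 32851 windows of the table. The SOX-type motif ACAATG or CATTGT was found in 1 of the 8, an Erg window, and also in 10.4% of all windows. These matches describe the letters, and Apln, with overlapping groups, holds the ETS motif while Meox2 does not.

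The lipid-handling genes of the set were the most abundant, and on the TMM scale they had the differences nearest to 0. On the log2(FPKM + 1) scale Sox17 was nearer to 0 than both, at -0.11. Fabp4 (ENSMUSG00000062515, chromosome 3, 10204088 to 10208576) was at 145 and 153 FPKM in Sham and 194 and 181 in MI. On the FPKM scale the MI libraries were the 2 higher ones, but on the TMM scale, at 806 and 768 against 833 and 868 CPM, the gap was hardly wider than the spread. The log2 difference was 0.11 ± 0.13 (adjusted p = 0.78 in edgeR) and 0.33 on the log2(FPKM + 1) scale (unadjusted p = 0.0218 and adjusted p = 0.3 in limma, where 12% of all genes were higher at an unadjusted p under 0.05). Sham replicate 2, the library with adipocyte transcripts, was 1.06-fold above Sham replicate 1 in FPKM of Fabp4. In CPM it was below Sham replicate 1, at 768 against 806. The 10 macrophage markers, another cell type in which Fabp4 is expressed, summed to 177 and 214 FPKM in Sham and 431 and 227 in MI, and their part in the Fabp4 level was not tested. Gpihbp1 (ENSMUSG00000022579, chromosome 15, 75596628 to 75598213) was at 40.9 and 37.6 FPKM in Sham and 50.9 and 41.9 in MI. MI replicate 2 was close to Sham replicate 1, and in CPM the groups overlapped (129 and 107 against 124 and 114). Its log2 difference was 0.01 ± 0.15 (adjusted p = 0.983 in edgeR), and its sign depended on the scaling, at -0.0015 with DESeq2 size factors and 0.23 on the log2(FPKM + 1) scale.

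Genes listed here for capillary lipid supply lay on both sides of 0. The list also holds the muscle gene Fabp3 and the transcription factor gene Meox1. Of 10 genes of capillary lipid supply, 3 were higher and 0 lower at an unadjusted p under 0.05 in edgeR, and the log2 differences ran from -0.62 (Angptl4, a lipase inhibitor gene) to 2.40 (Slc27a3), with a median of -0.04. Lpl, the lipase held by GPIHBP1, was at 332 and 259 FPKM in Sham and 244 and 285 in MI (-0.38 ± 0.25). The fatty acid translocase gene Cd36 had -0.28 ± 0.25 and the muscle binding protein gene Fabp3 -0.48 ± 0.22, neither at an unadjusted p under 0.05. Fabp5, the other endothelial fatty acid binding protein, was at 7.79 and 9.17 FPKM in Sham and 16.5 and 11.7 in MI (0.50 ± 0.16, unadjusted p = 0.0279). Meox1, the paralogue of Meox2 and a gene also known from activated fibroblasts, was at 2.78 and 4.38 FPKM in Sham and 14.1 and 12.4 in MI (1.68 ± 0.22, adjusted p = 0.201 in edgeR and 1.3e-07 in DESeq2). The third gene, Slc27a3, a fatty acid transporter gene, was at 0.14 and 0.04 FPKM in Sham and 0.77 and 0.38 in MI, from only 28 and 8 counts in Sham. Tcf15 was higher relative to the lipid-handling genes within each MI library: the Tcf15 to Fabp4 ratio of FPKM was 0.0272 and 0.0278 in Sham and 0.0602 and 0.0580 in MI, and the Tcf15 to Gpihbp1 ratio was 0.0964 and 0.113 against 0.230 and 0.250.

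The 10 genes were also set against endothelial transcripts in general. Of the 16 pan-endothelial genes, 5 were higher and 0 lower at an unadjusted p under 0.05, and 0 passed an adjusted p under 0.05 in edgeR, limma or DESeq2. Their log2 difference was above 0 for 13 of 16, with a median of 0.33. Tie1, an endothelial receptor kinase gene, was at 14.8 and 14.0 FPKM in Sham and 29.0 and 22.4 in MI (0.60 ± 0.15, unadjusted p = 0.0115), and Tek, which encodes the angiopoietin receptor, had 0.38 ± 0.12. Cdh5, VE-cadherin, had 0.39 ± 0.17 and Eng, endoglin, 0.14 ± 0.14, neither at an unadjusted p under 0.05. The median FPKM of the 16 genes was 7.45 and 8.38 in Sham and 13.2 and 10.9 in MI. It was highest in MI replicate 1, and without that library the median log2 difference of the 16 genes was 0.20.

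Relative to that median, 4 of the 10 genes were still higher in both MI libraries than in both Sham libraries, 3 were lower and 3 overlapped. Over the 17316 genes with FPKM above 0 in every library, 8.69% were higher and 51.6% lower by the same measure. The 4 higher genes were Aplnr, Tcf15, Meox2 and Egfl7, with mean differences of 1.77, 0.83, 0.52 and 0.43 on the log2 scale. Each Sham and MI pair was tight for Egfl7, at 0.49 and 0.47 against 0.92 and 0.90. The 3 lower genes were Sox17, Gpihbp1 and Fabp4, at -0.75, -0.37 and -0.27. Sox18, Apln and Erg overlapped, at 0.37, -0.15 and -0.05. With the geometric mean of Pecam1, Cdh5 and Tie1 as the reference the same 4 genes were higher and the same 3 lower (8.35% and 51.7% of all genes), and Sox18 joined the higher ones by a gap between its nearest libraries that vanishes at 2 decimals (-1.06 in both). The share of 3 lower genes in 10 is below that of all genes, so nothing is read from it. The 16 reference genes split by the same measure too: 5 were lower (Emcn, Ecscr, Eng, Pecam1 and Ptprb, at -0.61 to -0.16) and Cd34 and Tie1 were higher, at 0.47 and 0.22.

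**Figure D3:**
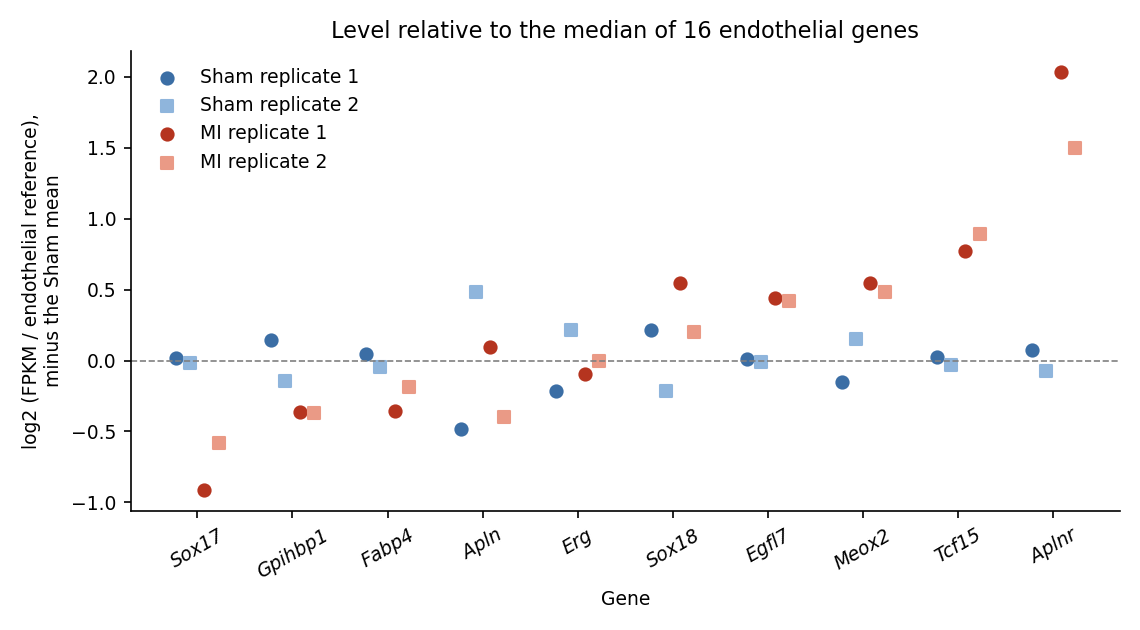
Log2 of each gene's FPKM over the median FPKM of 16 endothelial genes in the same library, with the Sham mean of that gene set to 0. The 4 genes on the right (Egfl7, Meox2, Tcf15 and Aplnr) have both MI libraries above both Sham libraries, and Sox17, Gpihbp1 and Fabp4 on the left have both below.

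Among 14 other genes known from heart capillaries, 1 was higher and 1 lower at an unadjusted p under 0.05, and the median log2 difference was 0.30. That median was 0.07 without Sham replicate 2 and 0.20 without Sham replicate 1. The higher gene, Fabp5, and Cd36 also stand in the lipid supply list. The water channel gene Aqp1 was at 166 and 120 FPKM in Sham and 244 and 196 in MI (0.38 ± 0.24). Sgk1, a serum-regulated and glucocorticoid-regulated kinase gene that many cell types express, was the lower one, at 19.4 and 22.8 FPKM in Sham and 14.8 and 15.8 in MI (-0.68 ± 0.15, unadjusted p = 0.00611, adjusted p = 0.301 in edgeR and 0.0116 in DESeq2). Of 19 other endothelial transcription factors, 6 were higher and 0 lower at an unadjusted p under 0.05 (4 higher in DESeq2), with a median of 0.38. Heyl, a Notch target, was at 2.77 and 3.07 FPKM in Sham and 6.16 and 5.11 in MI (0.73 ± 0.13, unadjusted p = 0.00323), and Hhex, a homeobox factor, at 0.25 and 0.27 against 1.06 and 0.67 (1.49 ± 0.31). The flow-responsive factors Klf2 and Klf4, the most abundant of the list, had 0.02 ± 0.14 and -0.50 ± 0.20. Of 11 tip cell and sprouting genes, 3 were higher and 0 lower at an unadjusted p under 0.05 (the same number higher in DESeq2), with a median of 0.41. Dll4, a Notch ligand of tip and arterial cells, was at 2.42 and 3.01 FPKM in Sham and 6.89 and 5.96 in MI (1.03 ± 0.15, adjusted p = 0.225 in edgeR and 1.1e-04 in DESeq2). The chemokine receptor gene Cxcr4 had 1.70 ± 0.32, and the growth factor genes Vegfa and Pdgfb 0.41 ± 0.17 and 0.25 ± 0.22.

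**Figure D4:**
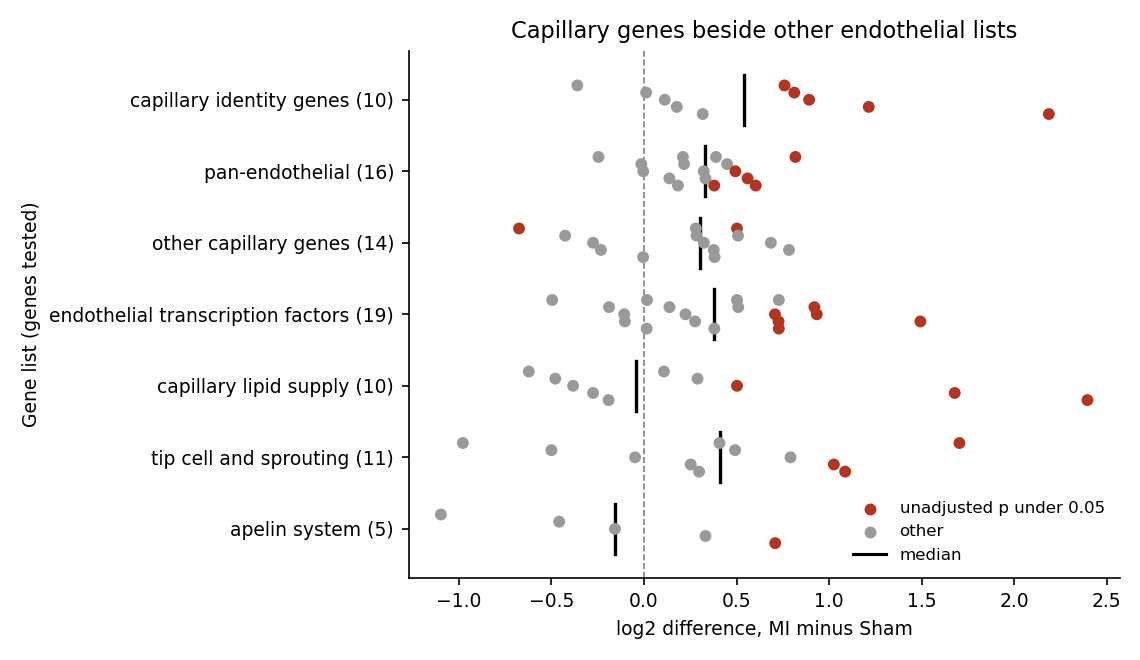
Log2 difference between MI and Sham for each tested gene of the 10 capillary genes and of 6 lists of related genes, with red points for an unadjusted p under 0.05 in edgeR and black lines for list medians. The capillary genes reach from -0.36 (Sox17) to 2.19 (Aplnr), with a median of 0.54 beside 0.33 for the pan-endothelial genes and -0.04 for capillary lipid supply.

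The 10 genes lie on 7 chromosomes, with 4 (Egfl7, Tcf15, Aplnr and Sox18) on chromosome 2, which holds 7.56% of the genes tested. All 10 are protein-coding. Their spans run from 1.59 kb for Gpihbp1 to 227 kb for Erg. The annotation column of the table gives the term angiogenesis to 6 of them (Egfl7, Meox2, Apln, Aplnr, Sox17 and Sox18) and to 1.24% of the genes tested. Of the 5 genes higher at an unadjusted p under 0.05, 4 carry that term, and so do Apln and Sox17, which were not.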

How the data were processed

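The authors deposited estimated counts, as whole numbers, and FPKM, per the file headers; FPKM is scaled by the authors to transcript length and depth. HISAT2 2.0.4, StringTie 1.3.4d, cutadapt 1.9 and UMI-tools are named without role or order, per the submitters' processing notes. As the sources used here name no genome build, coordinates were compared with GENCODE M21 (GRCm38), where 93.8% of the identifiers have the same start and end. Low counts pile up at multiples of 4 (1148 to 1174 genes at 4 and 284 to 331 at 3 per library).

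Genes were filtered with filterByExpr (min.count 10), scaled by TMM (factors 0.877 to 1.15) and compared between groups by the quasi-likelihood test (2-sided) of edgeR 4.0.16 under R 4.3.3, with Benjamini-Hochberg adjustment over all 18475 genes. DESeq2 1.42.0 and limma 3.58.1 on log2(FPKM + 1) were alternatives, beside other scalings and filters, a replicate block and leaving out each library. The edgeR steps were tested on simulated counts with planted differences larger than that of every gene of the set except Aplnr or close to it. Smaller differences were not simulated, so that test does not show how they are called. All 10 genes are named; for the related lists, the 2 most abundant genes, the 2 with the smallest p and any gene called, and for the other lists the 2 most abundant. Other genes were named after their values were seen. The genes and lists were chosen with earlier results of these data known, and no p is adjusted over a list. Promoter sequences are RefSeq's (GRCm38.p6). Intervals given as ± are SDs of 2 libraries or SEs. The edgeR SE was derived as the absolute log2 difference over the square root of its quasi-likelihood F statistic.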

Additional observations from a re-analysis of the deposited data

How the results depend on the processing

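Of 147 values of single genes under 15 other settings, 140 kept their direction. The 7 that did not were of Apln and Gpihbp1. Apln was at -0.23 without Sham replicate 1 and at -0.15 without MI replicate 1. Gpihbp1 was at -0.12 without Sham replicate 2 and at -0.04 without MI replicate 1. It was also at -0.0015 in edgeR with DESeq2 size factors and in DESeq2. Between Sham replicate 1 and MI replicate 2, a comparison chosen after seeing the data, Gpihbp1 was at -0.18. In the other fits with 1 library left out, Apln reached 0.75 and Gpihbp1 0.15. DESeq2 called 635 genes and 4 of the 10, where edgeR called 0 and 0; with 1 library left out edgeR called 0 to 10 genes and 0 of the 10. The number of the 10 at an unadjusted p under 0.05 was 3 to 5 with 1 library left out, and 3 (Egfl7, Tcf15 and Aplnr) without MI replicate 1. The share of all genes tested at that p is given for the fit of all 4 libraries only. With 1 library left out the numbers for the 10 therefore have no background here, and nothing is read from them. The median log2 difference of the 10, 0.54, was 0.42 to 0.67 with 1 library left out, 0.68 without mitochondrial transcripts, 0.66 in limma on log2(FPKM + 1) with or without a filter, 0.76 with a pseudocount of 0.1, and 0.86 with a mean FPKM of at least 5, where 7 of the 10 remain. Against TMM, the median of all genes moved by 0.14 without mitochondrial transcripts and by 0.17 to 0.22 in limma, and of the genes with an unadjusted p under 0.05, 61.2% were higher with TMM, 82.0% without mitochondrial transcripts, 83.3% to 86.9% in limma and 50.8% without MI replicate 1. The fit without mitochondrial transcripts was scaled to library totals with no TMM, so its values mix both changes. Nothing in the labels pairs libraries of the same number, and their deviations had a correlation of -0.06 across genes. With the replicate number as a block the median was 0.54, with 0 of the 10 and 0 of all genes tested called. The causes of these shifts were not tested. At 2 libraries per group a difference as small as that of Fabp4 or Gpihbp1 cannot be told from the spread.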

Other observations

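Markers of other endothelial beds were counted in the same way, with no test between beds. At an unadjusted p under 0.05 in edgeR, 7.12% of all genes tested were higher in MI and 4.51% lower. Of 9 arterial genes, 4 were higher and 0 lower at that p (median log2 difference 0.65). Among the 4 was Dll4, already counted with the tip cell genes. The most abundant, Sema3g and Gja4, were at 0.37 ± 0.26 and 0.50 ± 0.22. The log2 difference was above 0 for 7 of the 9. Gja5 and Bmx, named after their values were seen, had -0.55 ± 0.58 and -0.55 ± 0.75. Of 6 venous genes, 2 were higher and 1 lower. The most abundant, Ephb4 and Vwf, had 0.43 ± 0.14 and -0.01 ± 0.22, and Nr2f2, named after its value was seen, 0.92 ± 0.19. Selp, which encodes P-selectin of venous endothelium and platelets and was also named after its value was seen, had 352 and 477 counts in Sham and 28 and 55 in MI (log2 difference -3.62 ± 0.47, adjusted p = 0.201 in edgeR and 5.5e-10 in DESeq2). Of 7 lymphatic genes, 3 were higher and 0 lower, among them Ccl21a, a chemokine gene of lymphatic endothelium, at 9.86 and 11.5 FPKM in Sham and 28.6 and 27.9 in MI (1.19 ± 0.15), while Lyve1 had 0.21 ± 0.18. Of 5 endocardial genes tested, 1 was higher and 0 lower, and Plvap and Cytl1 had 0.16 ± 0.59 and -0.61 ± 0.47.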
